A study of Homo sapiens with 6 samples.

Results

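The genes described here encode the proteasome that is present in nearly every cell, together with its activators, its inhibitor and the chaperones that assemble it. They were taken by symbol from the table of 15706 genes: 46 symbols matched the PSMA to PSMG families, and the 8 that encode the catalytic beta subunits, their immune counterparts and the PSME1 and PSME2 activator were dropped, which left 38 genes. The 38 comprise 7 alpha and 4 beta subunits of the 20S core particle, 6 ATPase and 11 non-ATPase subunits of the 19S regulatory particle, 3 genes for activators or an inhibitor, and 7 assembly chaperones. PSMA8 and PSMB11 were not analysed here. RNA was sequenced from untreated MDA-MB-231 cells, a human triple-negative breast cancer line grown in DMEM with serum, to compare cells lacking MLL3 with wild type cells. MLL3, approved symbol KMT2C, is a methyltransferase for lysine 4 of histone H3. There were 3 libraries from cells with a guide RNA against MLL3 (sgMLL3, genotype MLL3-knock out) and 3 from cells with the sgNT guide (wild type, called control below), each labelled as biological replicates 1 to 3. Clonal or pooled origin, separate culture of the replicates and the sequences of the numbered guides are not given by the labels, so the p-values measure the spread between these libraries.

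The proteasome degrades proteins that carry ubiquitin chains. In its 20S core, outer rings of alpha subunits gate the entrance and inner rings of beta subunits hold the protease sites. The 19S particle binds ubiquitin chains, removes them, and unfolds and threads the substrate into the core with a ring of ATPases. The transcription factor NFE2L1 drives proteasome genes as a group when proteasome activity is limiting, through antioxidant response elements in their promoters.

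Depth over the listed genes, in whole reads recovered from the table, was 41401044 to 49514464 in the knockout libraries and 41240265 to 48244821 in the control libraries. Levels are normalized read counts, which are reads divided by 1 size factor per library. KMT2C itself was read at 1519, 1659.9 and 1339 normalized counts in the knockout libraries and at 1367, 1379 and 1255 in the control libraries. The groups overlapped and the log2 difference, 0.17 with an SE of 0.10, had a limma adjusted p of 0.205, so the transcript gave no check of the label, and knockout means the label throughout. The mesenchymal marker VIM was read at 20718 to 22344 counts in knockout and 24143 to 24497 in control libraries. The epithelial cadherin CDH1 stood between 2.11 and 7.52 in the 6 libraries, whereas ESR1 and PGR were not analysed here. ERBB2 was read at 4581 to 5282 counts in knockout and 5612 to 6016 in control libraries. EPCAM was read at 861 to 999 in knockout and 765 to 796 in control libraries. The groups did not overlap in VIM, ERBB2 and EPCAM (limma adjusted p = 0.0879, 0.0569 and 0.0591). AXL and PDGFRB were lower in every knockout library (-0.28 and -0.48, limma adjusted p = 0.012 and 0.00456), whereas CD44, EGFR and KRT18 overlapped. Of the genes taken as leukocyte markers, PTPRC was read at 197 to 259 counts in knockout and 258 to 302 in control libraries. LYZ was read at 1.77 to 4.23 in knockout and 1.07 to 10.8 in control libraries, and CD74 is given with the immune subunits. Control replicate 1 held the largest summed share of proteasome reads, as given below.

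Proteasome genes changed little and in both directions. All 38 passed the minimum mean of 10 normalized counts, and their log2 fold changes (knockout minus control) ran from -0.28 to 0.505 with a median of -0.035, against a median of -0.017 over the 14618 genes tested. A gene was called where its limma adjusted p, over all genes tested, was below 0.05. In the knockout libraries 6 of the 38 rose (15.8%, against 18.9% of all tested genes) and 5 fell (13.2%, against 14.4%). Counts by role and by related list below stand against the same shares of all tested genes. The risen genes gained between 16.8% (PSMD6) and 41.9% (PSME4) of their control level, and the fallen genes changed by -13.7% (PSMB4) to -17.2% (PSMD3). In bulk RNA a shift in every cell and a shift in the mix of cells cannot be told apart. Of the 27 that were not called, 9 had an adjusted p under 0.1. The share of all tested genes in that range is not reported here, so this count cannot be read as particular to the members. Counting genes whose groups did not overlap, 9 were higher in every knockout library (23.7%, against 23.9% of all tested genes) and 15 were lower in every knockout library (39.5%, against 22.4%). The authors' deposited table called 7 higher (21.1% of its genes were called higher) and 9 lower (17.4% of its genes), which added PSMD5 (adjusted p = 0.0491) to the higher and PSMC4, PSMD2, PSMD4 and PSME3 (adjusted p = 0.0398 to 0.0484) to the lower genes.

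Summed over the 38 genes, levels came to 7369.3, 6938 and 7039.1 CPM, reads scaled to library size, in the knockout libraries and to 7706.8, 7076.3 and 7101 CPM in the control libraries. The sums overlapped between the groups. The SD of a member within a group, pooled over both groups on the log2 scale, had a median of 0.092 and ran from 0.033 to 0.21. Without knockout replicate 1, 2 genes were called higher and 0 lower, without knockout replicate 2, 3 and 0, and without control replicate 3, 2 and 1. Without control replicate 1 the calls numbered 11 higher and 7 lower. Counts over all tested genes with a library left out are not reported here, so these swings cannot be read as particular to the members. PSMD14 and PSME4 were the only members called with each of the 6 libraries left out in turn.

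**Figure D1:**
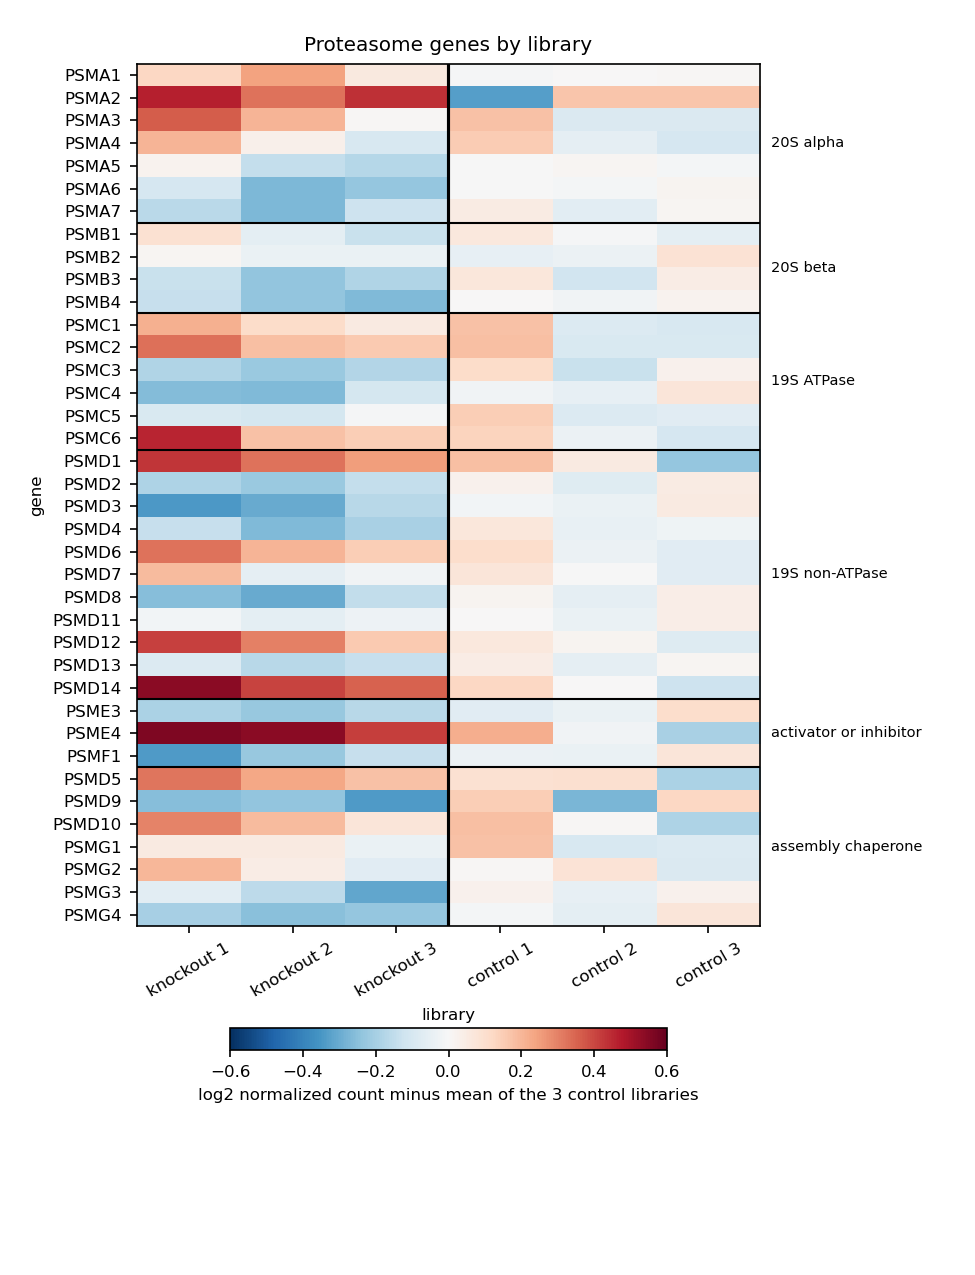
Each row is a proteasome gene and each column a library, knockout libraries on the left and control libraries on the right; colour gives the log2 normalized count minus the mean of the 3 control libraries. PSME4, PSMD14 and PSMD1 are red in all 3 knockout libraries, whereas PSMD3, PSMD8 and PSMF1 are blue there.

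The direction of a change followed the base composition of the transcript. GC content, taken from the longest GENCODE 29 transcript, lay between 31.96% and 44.2% in the 6 risen genes and between 47.46% and 55.03% in the 5 fallen genes, with no overlap. Among the 16 members below 45% GC, 6 rose and 0 fell, with a median log2 fold change of 0.22, and among the 22 at or above 45%, 0 rose and 5 fell, with a median of -0.185. The same split held over all tested genes, where 2512 of 5354 below 45% rose and 44 fell, and 248 of 9244 at or above it rose and 2055 fell. Spearman's rho between GC content and log2 fold change was -0.682 across the 38 members and -0.673 across 14598 tested genes, which share the 6 libraries and are not independent replicates. Whether this trend arose in the cells or in the libraries was not tested.

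A smooth trend of GC content and transcript length was therefore also subtracted from each library, and the test was repeated. With a trend removed, rose and fell mean above or below that trend and not a change in the counts themselves. With the trend of the longest transcript removed, 0 members rose (4.08% of all tested genes did) and 7 fell (18.4%, against 5.95%), and the median log2 fold change was -0.075, against -0.018 over all tested genes. The longest annotated transcript can differ from the principal one, and GC content differed by over 5 percentage points between them in 5 members, PSMA6, PSMB1, PSMD3, PSMD6 and PSMD14. With the principal transcript, an alternative added after the values were seen, 2 members rose (5.26%, against 3.98%) and 4 fell (10.5%, against 5.4%). PSMA4, PSMA5, PSMA6 and PSMF1 fell under both choices, and PSMD6 was called in opposite directions. Below, trend removal means that of the longest transcript where none is named. Across members the rho with GC content was 0.389 after removal of the longest-transcript trend, so members of low GC content tended to stand lower relative to it. The -0.028 across all tested genes was near 0 by construction, as the trend was fitted on those genes.

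**Figure D2:**
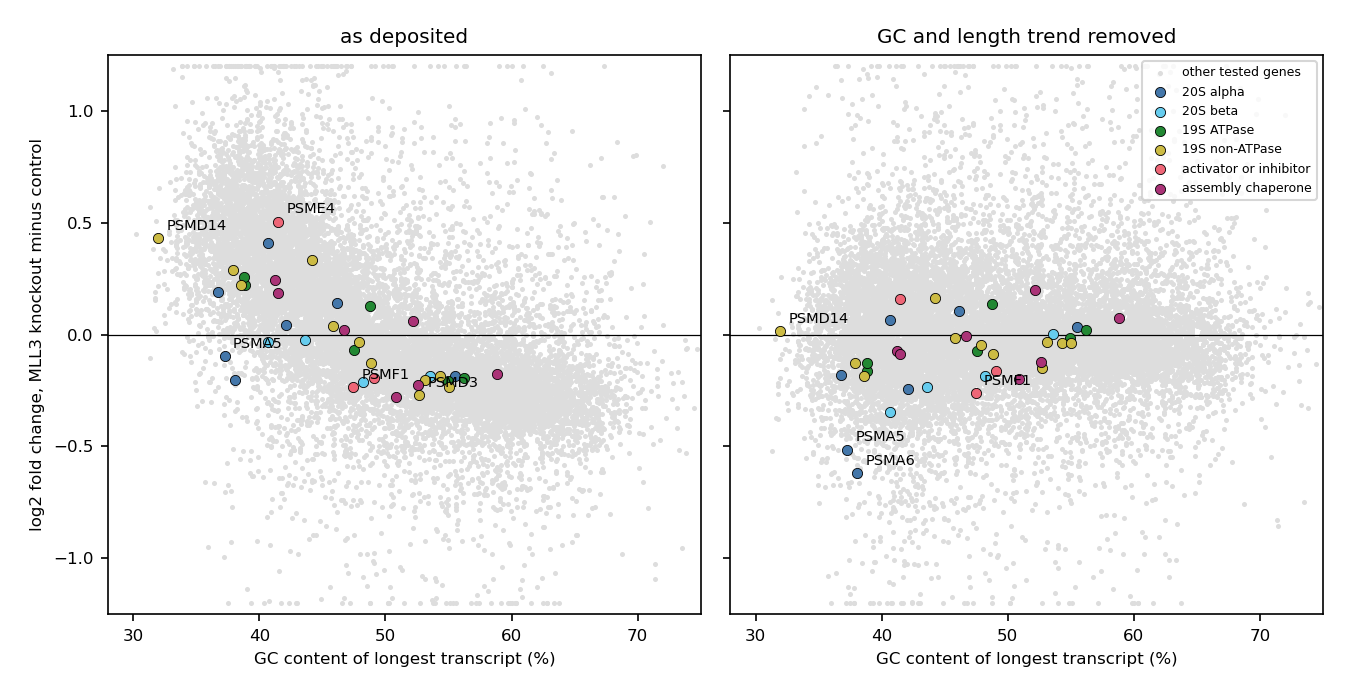
Log2 fold change (knockout minus control) is plotted against the GC content of the longest transcript, as deposited on the left and with the trend removed on the right; grey points are other tested genes, those beyond the axis drawn at its edge, and coloured points are the 38 proteasome genes by role. As deposited the members follow the grey cloud downward with GC content (rho -0.682), and with the trend removed PSMA5 and PSMA6 stand lowest, at -0.515 and -0.62.

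Promoters of 34 members were matched in RefSeq (GRCh38.p14), with 41 start sites among them, each as 250 bases before and 50 after the start. PSMA7, PSMB1, PSMD4 and PSMG3 had none. Those printed below belong to the members with the largest rise (PSME4 and PSMD14), to the largest called fall (PSMD3), and to PSMD12. PSMD12 is a risen gene picked for its letter match to TGACNNNGC, so the printed promoters hold this match more often than the member promoters do. Capitals mark TGACNNNGC, the core letters of an antioxidant response element, and CCAAT, the box bound by NF-Y, on either strand. PSMD14 lies at chr2:161308175-161308474 on the plus strand, PSMD12 at chr17:67366528-67366827 on the minus strand, PSME4 at chr2:53970944-53971243 on the minus strand and PSMD3 at chr17:39980557-39980856 on the plus strand.
PSME4: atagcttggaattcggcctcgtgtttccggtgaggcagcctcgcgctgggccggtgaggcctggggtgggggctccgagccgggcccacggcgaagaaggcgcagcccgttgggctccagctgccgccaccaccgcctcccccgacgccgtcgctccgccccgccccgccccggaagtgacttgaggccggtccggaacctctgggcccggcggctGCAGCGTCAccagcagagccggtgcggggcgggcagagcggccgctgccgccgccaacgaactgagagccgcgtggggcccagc
PSMD14: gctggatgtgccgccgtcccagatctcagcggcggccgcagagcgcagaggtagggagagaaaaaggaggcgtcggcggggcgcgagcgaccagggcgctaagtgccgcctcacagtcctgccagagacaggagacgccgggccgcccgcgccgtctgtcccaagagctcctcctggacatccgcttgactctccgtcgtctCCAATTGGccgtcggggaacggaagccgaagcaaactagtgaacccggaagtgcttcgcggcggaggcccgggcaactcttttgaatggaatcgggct
PSMD12: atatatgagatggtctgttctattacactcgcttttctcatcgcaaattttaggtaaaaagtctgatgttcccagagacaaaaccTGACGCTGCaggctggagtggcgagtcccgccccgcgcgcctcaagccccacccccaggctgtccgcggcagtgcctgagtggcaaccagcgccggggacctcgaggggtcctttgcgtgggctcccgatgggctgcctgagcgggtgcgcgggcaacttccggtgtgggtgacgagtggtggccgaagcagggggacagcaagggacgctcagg
PSMD3: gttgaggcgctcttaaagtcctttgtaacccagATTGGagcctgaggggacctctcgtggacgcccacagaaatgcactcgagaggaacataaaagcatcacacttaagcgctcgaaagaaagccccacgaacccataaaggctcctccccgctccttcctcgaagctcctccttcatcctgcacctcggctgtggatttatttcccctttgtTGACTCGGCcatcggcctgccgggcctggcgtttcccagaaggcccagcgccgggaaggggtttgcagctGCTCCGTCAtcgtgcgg
PSME4 and PSMD12 hold 1 match to TGACNNNGC each, and PSMD3 holds 2 beside 1 CCAAT. In PSMD14 the capitals are a CCAAT on each strand, sharing 2 bases, and no TGACNNNGC is present. TGACNNNGC was found in 12 of the 41 member promoters (29.3%), against 13.3% of all 35116 promoters of that length. CCAAT was found in 17 (41.5%, against 34.6%), and CCGGAAG, the core of sites for ETS factors, in 14 (34.1%, against 10.3%). By call, TGACNNNGC was in 3 of 6 promoters of risen genes (PSMD1, PSMD12 and PSME4), in 1 of 6 of fallen genes (PSMD3) and in 8 of 29 of the others. These are letter matches and no binding was measured.

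None of the 7 alpha subunits of the 20S core was called, and their log2 fold changes ran from -0.20 in PSMA6 to 0.41 in PSMA2. Both of these genes had low counts and share exon bases with another gene on the same strand, 81.0% in PSMA6 and 52.5% in PSMA2. How reads on shared bases were counted is not given. PSMA2 was read at 129.9, 118 and 128 normalized counts in the knockout libraries and at 74.3, 105.3 and 105.3 in the control libraries. Every knockout library was above every control library, control replicate 1 was the lowest, and the difference of 0.41, with an SE of 0.21, missed the threshold (limma adjusted p = 0.135). PSMA6 was read at 671, 596 and 612 counts in the knockout libraries and at 719, 714 and 727 in the control libraries. Again the groups did not overlap, and the difference of -0.20 (SE 0.11, adjusted p = 0.161) did not pass. PSMA7, the most abundant member per length, averaged 27120.1 ± 1429 counts in knockout and 30814 ± 1177 in control libraries (SD, n = 3 each; -0.185, adjusted p = 0.0707).

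With the trend removed, 3 of the 7 alpha subunits were called lower, against 5.95% of all tested genes. PSMA5 was read at 14085, 12581 and 12326 counts in the knockout libraries and at 13874, 13985.5 and 13785 in the control libraries, and these overlapped. As deposited its log2 fold change was -0.097 (SE 0.078, limma adjusted p = 0.349). With the trend removed its log2 values were 13.47, 13.40 and 13.49 in the knockout libraries and 13.91, 13.95 and 14.05 in the control libraries. The groups then stood apart, with differences of -0.515 (adjusted p = 0.000716) for the longest and -0.53 (adjusted p = 0.0006) for the principal transcript. PSMA6 differed by -0.62 (adjusted p = 0.00234) and -0.33 (adjusted p = 0.0333) under the 2 transcript choices, and PSMA4 by -0.24 (adjusted p = 0.0334) and -0.27 (adjusted p = 0.0196). PSMA4 had a positive difference of 0.045 as deposited (adjusted p = 0.737).

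Of the 4 beta subunits, 1 fell and all 4 had negative differences, with a median of -0.11. Over all tested genes 7553 of 14618 had negative differences. Those of PSMB1 and PSMB2 were near 0 and turned positive with quantile normalization (0.042 and 0.018). PSMB4, a beta subunit without a protease site, was read at 14815, 13843.5 and 13578 counts in the knockout libraries and at 16299.7, 16045 and 16545 in the control libraries. All knockout libraries were below all control libraries, and the log2 fold change was -0.21 (SE 0.075, limma adjusted p = 0.0369). The call was lost without any one of knockout replicates 1, 2 and 3 or control replicates 2 and 3, with values of -0.25 to -0.19 over the 6 libraries left out in turn and adjusted p up to 0.169. With the trend removed it was at -0.18 for the longest transcript (adjusted p = 0.0348) and at -0.077 for the principal one (adjusted p = 0.338), which did not pass. PSMB2, at the other end, was read at 6397, 6169.8 and 6158 counts in the knockout libraries and at 6115, 6190.5 and 6721 in the control libraries, which overlapped (-0.022, SE 0.078, adjusted p = 0.851). PSMB1 differed by -0.035 as deposited (adjusted p = 0.772), by -0.35 with the longest-transcript trend removed (adjusted p = 0.00177) and by 0.009 with the principal transcript (adjusted p = 0.941). Its GC content was 40.69% in the longest and 48.28% in the principal transcript.

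Among the 6 ATPases of the 19S ring 1 rose and 0 fell, with a median log2 fold change of 0.029. PSMC6 was read at 4528, 3730.1 and 3649 counts in the knockout libraries and at 3618, 3221 and 3081 in the control libraries. The groups did not overlap, though knockout replicate 3 and control replicate 1 were close, and the log2 fold change was 0.26 (SE 0.097, limma adjusted p = 0.0466). The call did not hold without knockout replicate 1, knockout replicate 2, control replicate 2 or control replicate 3, with values of 0.16 to 0.33 over the 6 libraries left out in turn and adjusted p up to 0.264. After trend removal its value was -0.13 (adjusted p = 0.23). PSMC4 was read at 6015, 5987 and 6694 counts in the knockout libraries and at 7086, 6948 and 7567 in the control libraries, all knockout libraries below all control libraries (-0.21, SE 0.081, adjusted p = 0.0527). PSMC2 and PSMC3 differed by 0.22 and -0.19 (adjusted p = 0.0609 and 0.0677), and PSMC1 and PSMC5 by 0.13 and -0.067 (adjusted p = 0.282 and 0.567).

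Of the 11 non-ATPase subunits of the 19S particle, the largest role among the members, 4 rose and 2 fell. Over all tested genes 18.9% rose and 14.4% fell. PSMD14 encodes the deubiquitinase of the 19S lid, which cuts ubiquitin chains from substrates. It was read at 8312, 7583 and 7305 counts in the knockout libraries and at 6229, 5731 and 5244 in the control libraries. All knockout libraries were above all control libraries, and the log2 fold change was 0.43 (SE 0.086, limma adjusted p = 0.00131), with values of 0.37 to 0.49 when 1 library was left out in turn. After trend removal its value depended on the transcript, at 0.017 (adjusted p = 0.909) for the longest, of 31.96% GC, and 0.31 (adjusted p = 0.00616) for the principal one, of 45.29% GC.

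PSMD1, the large scaffold of the 19S base, was read at 8720.1, 8112 and 7703 counts in the knockout libraries and at 7322, 6714 and 5507 in the control libraries. Control replicate 3 was the lowest and the groups did not overlap (0.34, SE 0.0965, limma adjusted p = 0.0138). The call was lost without knockout replicate 1 or control replicate 3, with values of 0.22 to 0.43 over the 6 libraries left out in turn and adjusted p up to 0.0831. PSMD12, a structural subunit of the lid, was read at 6720.5, 6242 and 5645 counts in the knockout libraries and at 5285, 5111 and 4797 in the control libraries. These did not overlap (0.29, SE 0.085, adjusted p = 0.0156), and the call was lost without knockout replicate 1 or 2 or control replicate 3 (0.23 to 0.36 over the 6, adjusted p up to 0.0985). PSMD6, another lid subunit, was read at 8021, 7369 and 7088 counts in the knockout libraries and at 6895, 6243 and 6109 in the control libraries. Here too the groups did not overlap (0.22, SE 0.082, adjusted p = 0.0443), and the call was lost without either knockout replicate 1 or 2, and without either control replicate 2 or 3 (0.17 to 0.28 over the 6, adjusted p up to 0.191). Trend removal left PSMD1 at 0.17 and PSMD12 at -0.13 (adjusted p = 0.168 and 0.129). PSMD6 was lower by -0.18 for the longest transcript (adjusted p = 0.0459) and higher by 0.18 for the principal one (adjusted p = 0.0494).

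The fallen non-ATPase subunits were the lid members PSMD3 and PSMD8. PSMD3 was read at 12586, 12978 and 14255 counts in the knockout libraries and at 15841, 15573 and 16614 in the control libraries. The groups did not overlap, and the log2 fold change was -0.27 (SE 0.078, limma adjusted p = 0.0135). The call was lost without knockout replicate 1 or 2 (-0.32 to -0.235 over the 6 libraries left out in turn, adjusted p up to 0.0868). PSMD8 was read at 14244, 13779 and 15346 counts in the knockout libraries and at 17182, 16373 and 17456 in the control libraries. All knockout libraries were lower (-0.235, SE 0.0765, adjusted p = 0.0256), and the call was lost without knockout replicate 1 or 2 or control replicate 3 (-0.28 to -0.20 over the 6, adjusted p up to 0.168). Trend removal left PSMD3 at -0.15 and PSMD8 at -0.038 (adjusted p = 0.0826 and 0.683), and with the principal transcript at -0.061 and -0.019 (adjusted p = 0.444 and 0.851). The ubiquitin receptor PSMD4 and the scaffold PSMD2 did not overlap between the groups and did not pass (-0.20 and -0.18, adjusted p = 0.0522 and 0.0714). PSMD7, PSMD11 and PSMD13 differed by 0.039, -0.035 and -0.13, with adjusted p of 0.764, 0.756 and 0.197.

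**Figure D3:**
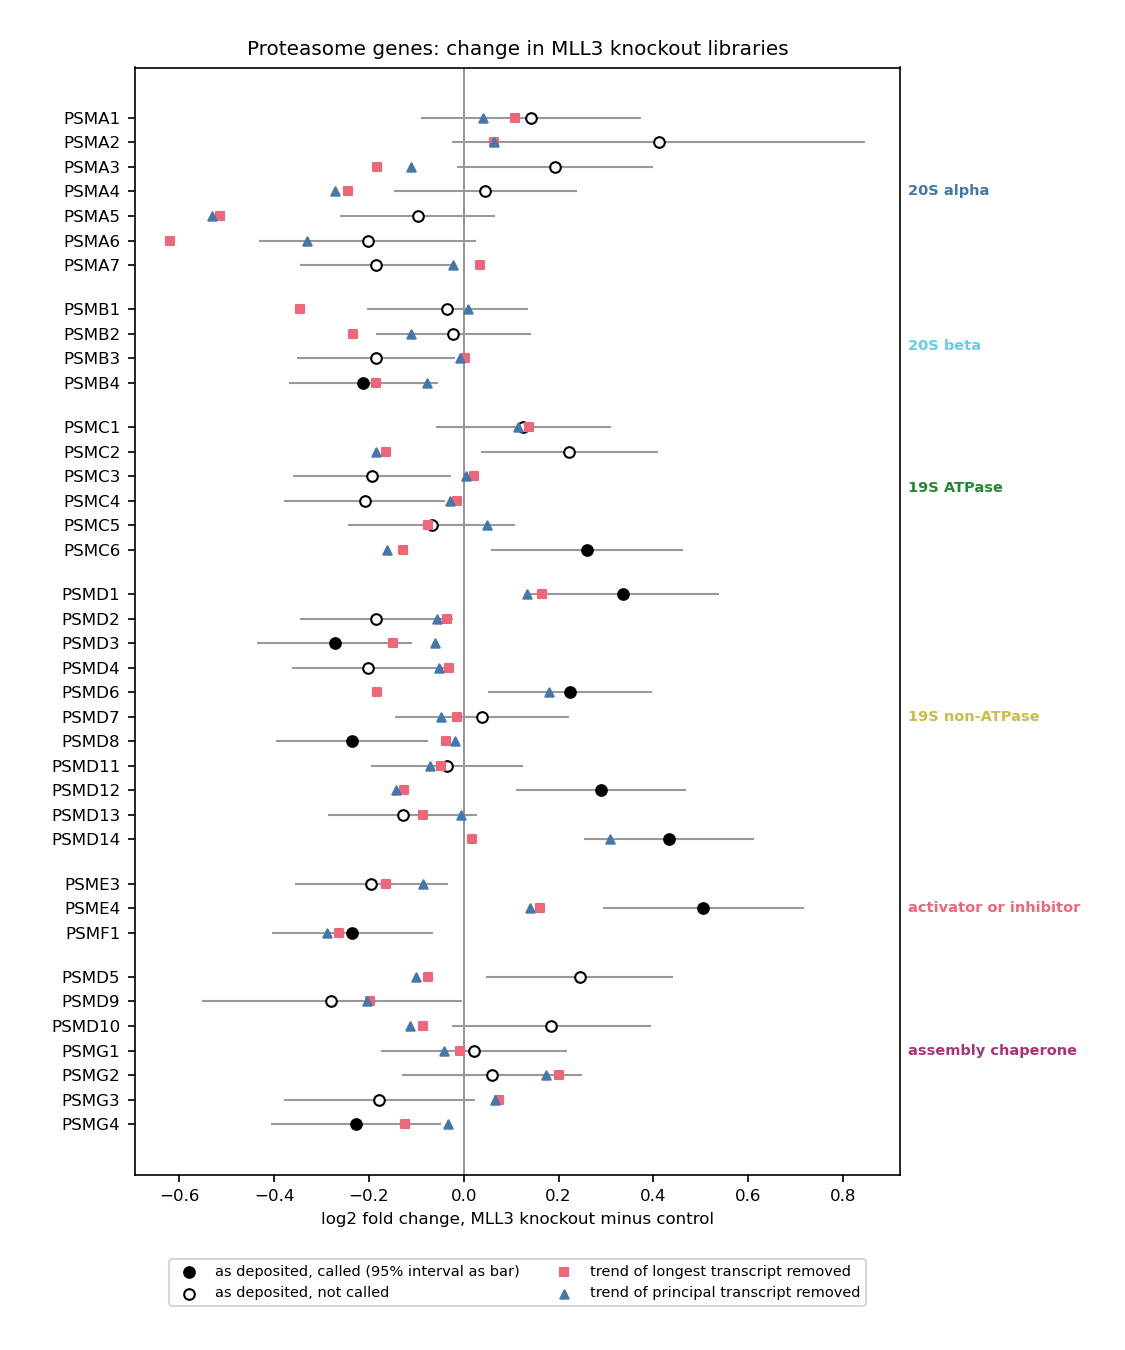
Log2 fold changes (knockout minus control) of the 38 proteasome genes by role: circles with 95% interval bars as deposited, filled where called, squares with the longest-transcript trend removed and triangles with the principal-transcript trend removed. PSME4 and PSMD14 lie farthest right of the called genes, at 0.505 and 0.43, and the squares of PSMA5 and PSMA6 lie farthest left.

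Of the 3 genes for activators or an inhibitor, 1 rose and 1 fell. PSME4 encodes the large activator PA200, a single chain that caps the core in place of the 19S particle. It was read at 3313, 3269 and 2999 counts in the knockout libraries and at 2612, 2213 and 1964 in the control libraries. The groups did not overlap, and its log2 fold change, 0.505 with an SE of 0.10 and a limma adjusted p of 0.0014, was the highest of the 38, with values of 0.41 to 0.61 when 1 library was left out in turn. Removal of the longest-transcript trend left 0.16 (adjusted p = 0.171), and that of the principal transcript 0.14 (adjusted p = 0.224). PSMF1 encodes PI31, known as an inhibitor of the core particle. It was read at 5757, 6223 and 6615 counts in the knockout libraries and at 7113, 7084 and 7661 in the control libraries. All knockout libraries were below all control libraries (-0.235, SE 0.081, adjusted p = 0.0341), and it fell in both trend-removed analyses, by -0.26 (adjusted p = 0.0259) and -0.29 (adjusted p = 0.0207). The call as deposited was lost on leaving out knockout replicate 1, knockout replicate 2, control replicate 2 or control replicate 3 (-0.28 to -0.18 over the 6 libraries left out in turn, adjusted p up to 0.162). PSME3, which forms the nuclear PA28-gamma activator, differed by -0.195 (adjusted p = 0.059).

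Of the 7 assembly chaperones 0 rose and 1 fell. PSMG4, which with its partner PSMG3 helps to build the alpha ring, was read at 2100.01, 2030.3 and 2058 counts in the knockout libraries and at 2394, 2319.8 and 2536 in the control libraries. The groups did not overlap (-0.23, SE 0.086, limma adjusted p = 0.0491), and the call was lost without any one of knockout replicates 1, 2 and 3 or control replicates 2 and 3 (-0.26 to -0.19 over the 6 left out in turn, adjusted p up to 0.187). After trend removal it was at -0.12 for the longest (adjusted p = 0.234) and -0.034 for the principal transcript (adjusted p = 0.755). PSMD5, a chaperone of the 19S base, was read at 3283, 3087 and 2970.1 counts in the knockout libraries and at 2793, 2811 and 2305 in the control libraries. The knockout libraries were all above the control libraries (0.245, SE 0.094, adjusted p = 0.0528). PSMD9, another base chaperone, was read at 494, 502 and 466 counts in the knockout libraries and at 655, 489 and 645 in the control libraries. Control replicate 2 lay within the knockout range, and the difference of -0.28 (SE 0.13, adjusted p = 0.108) did not pass. PSMD10, PSMG1, PSMG2 and PSMG3 differed by 0.185, 0.022, 0.059 and -0.18 (adjusted p = 0.163, 0.879, 0.645 and 0.159).

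Levels between genes were compared as RPKM, reads scaled to library size and to the length of the principal transcript. PSMA7 was highest, at an RPKM of 619.9 ± 31.5 in knockout and 682 ± 33 in control libraries (SD, n = 3 each). PSMB4 followed at 332.6 ± 16.8 in knockout and 372.6 ± 6.97 in control libraries, then PSMD2 at 313.1 ± 8.1 in knockout and 344.3 ± 14.8 in control libraries, a pair whose knockout values lie within their SDs of each other. At the low end stood PSMA2 at 1.92 ± 0.099 in knockout and 1.40 ± 0.24 in control libraries, and PSMD9 at 3.99 ± 0.17 in knockout and 4.72 ± 0.74 in control libraries. PSMA1, PSMA2, PSMA6 and PSMD9 were the 4 members with means under 1000 normalized counts in both groups, and the lowest group mean of the others was 1504 (PSMG3, knockout). These 4 were also the members whose principal transcript shares exon bases with another gene on the same strand in GENCODE 29, over 53.2% (PSMA1), 52.5% (PSMA2), 81.0% (PSMA6) and 43.8% (PSMD9) of its length. The same share was 0.0% in the other 34. How reads on shared bases were counted is not given in the sources used here, and the part of the sharing in these levels was not tested. Opposite-strand exons covered 82.1% of PSMC1 (NRDE2), 50.4% of PSMD7 and 27.2% of PSMC5 (FTSJ3), and without a stated strand setting reads of such pairs cannot be told apart. Processed copies of PSMC1, PSMC2, PSMC3, PSMD2, PSMD8 and PSMD12 were listed at low counts, at most 203 (PSMD2P1).

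**Figure D4:**
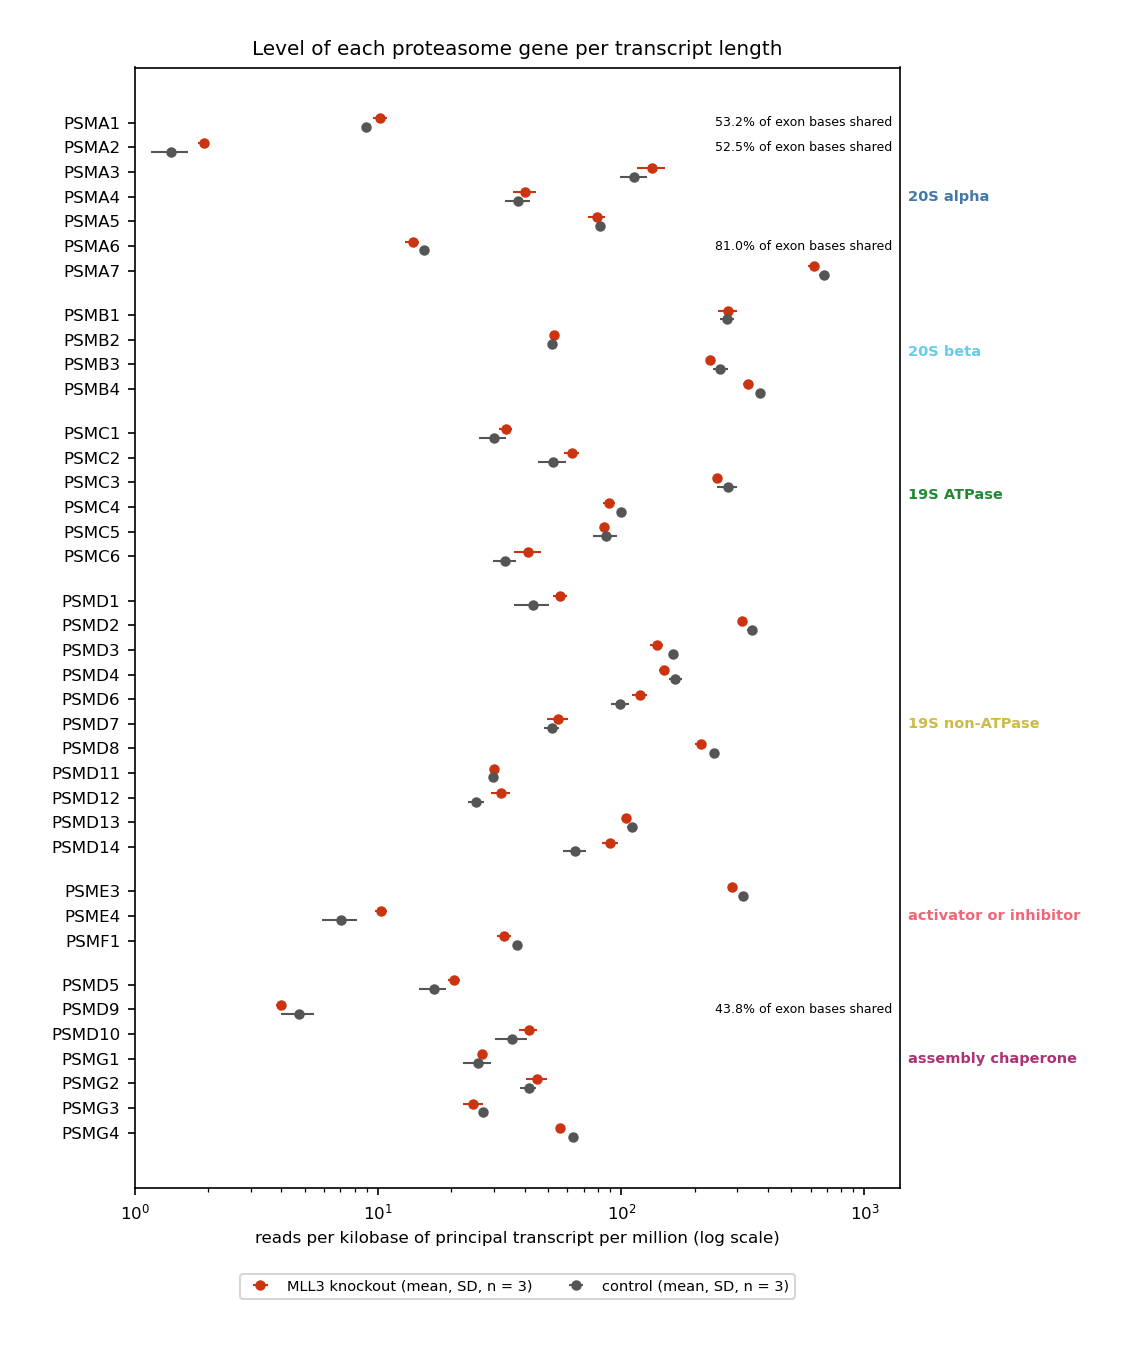
RPKM over the principal transcript (log axis) for the 38 proteasome genes by role, red for knockout and grey for control libraries, as mean with SD bars (n = 3 each). Labels give the share of exon bases shared with another gene on the same strand; the 4 labelled genes, PSMA1, PSMA2, PSMA6 and PSMD9, are among the lowest.

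Of the catalytic beta subunits, PSMB5 (chymotrypsin-like) and PSMB6 (caspase-like) fell. PSMB6 averaged 6337 ± 105 counts in knockout and 7855 ± 620 in control libraries (SD, n = 3 each; -0.31 on the log2 scale, SE 0.0805, limma adjusted p = 0.00842; call lost without knockout replicate 2, adjusted p = 0.0582). PSMB5 averaged 7459 ± 332 in knockout and 8769 ± 298 in control libraries (-0.23, SE 0.077, adjusted p = 0.0272; call lost without any one library other than control replicate 1, adjusted p up to 0.0971). PSMB7 (trypsin-like) differed by -0.13 (adjusted p = 0.188). ADRM1, a ubiquitin receptor of the 19S base, averaged 8699.7 ± 672 counts in knockout and 10995 ± 551 in control libraries (-0.34, SE 0.081, adjusted p = 0.00491). In this list of 7 other core and assembly genes 0 rose (18.9% of all tested genes did) and 3 fell (14.4% did). After trend removal these 3 were at -0.089 (PSMB5), -0.10 (PSMB6) and -0.072 (ADRM1) and did not pass. Called lower relative to the trend were 3 others: SEM1, a small lid subunit (-0.38, adjusted p = 0.00531), POMP, the chaperone of beta-ring assembly (-0.25, adjusted p = 0.0161), and PAAF1 (-0.28, adjusted p = 0.0339). As deposited SEM1, POMP and PAAF1 differed by 0.015, 0.13 and -0.17 and were not called. In POMP every knockout library was above every control library, but barely, at 5365 counts in knockout replicate 3 and 5354 in control replicate 3. SEM1, POMP and PAAF1 are named after their values were seen. All 5 immune genes fell, PSMB8, PSMB9, PSMB10, PSME1 and PSME2, with log2 fold changes of -0.51 (PSMB9, adjusted p = 0.000521) to -0.25 (PSME1, adjusted p = 0.0404). Among all tested genes 14.4% fell. The longest transcripts of all 5 were above 45% GC, and of all tested genes at or above 45%, 2055 of 9244 fell. With the trend removed PSMB9 fell for the longest (-0.55, adjusted p = 0.00156) and the principal transcript (-0.29, adjusted p = 0.0131), and PSME2 for the longest (-0.205, adjusted p = 0.0372) but not the principal one (-0.073, adjusted p = 0.509). PSMB8, PSMB10 and PSME1 were called under neither choice. They were at -0.16, -0.087 and -0.076 for the longest transcript (adjusted p = 0.169, 0.605 and 0.566). Among the 4 genes taken as leukocyte markers, CD74 was also lower, at 13078, 13551 and 13870 counts in the knockout libraries and 14414, 18117 and 19453 in the control libraries (-0.35, adjusted p = 0.0105), and was at -0.11 with the trend removed (adjusted p = 0.432). PTPRC was at -0.33 as deposited (adjusted p = 0.108) and at -0.76 with the trend removed (adjusted p = 0.0131). CD3E was at -1.12 (adjusted p = 0.0638), and LYZ was below the minimum mean. The 4 summed to between 13330 and 14143 counts in the knockout libraries and between 14750 and 19815 in the control libraries. CD74 made up nearly all of this sum in every library, so the sum repeats CD74 and does not measure leukocyte content. CD74 stood far above PTPRC, CD3E (12.8 to 86.9 counts over both groups) and LYZ in this cancer line. Its counts are not taken here as leukocyte content. The part of these markers in the fall of the immune genes was not tested. As deposited the call of PSMB9 held without each library in turn, that of PSME2 was lost without knockout replicate 2, that of PSMB8 without knockout replicate 2 or control replicate 2, that of PSMB10 without knockout replicate 2, control replicate 2 or control replicate 3, and that of PSME1 without any one library other than control replicate 1, with adjusted p up to 0.195.

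In the NFE2L1 axis, 4 of 11 genes rose (18.9% of all tested genes did) and 2 fell (14.4% did). NFE2L2, a related factor that binds the same element, averaged 3521 ± 193 counts in knockout and 2334 ± 358 in control libraries (SD, n = 3 each; 0.60, SE 0.10, limma adjusted p = 0.000437), and remained at 0.51 after trend removal (adjusted p = 0.00401). NFE2L1 itself averaged 14848 ± 758 in knockout and 16744 ± 1411 in control libraries (-0.17, SE 0.082, adjusted p = 0.115). SEL1L and NGLY1, which act on NFE2L1 at the endoplasmic reticulum, rose by 0.46 (adjusted p = 0.00111 and 0.00494). The small partner MAFG and the ligase SYVN1 fell by 0.27 and 0.29 (adjusted p = 0.0398 and 0.0495), calls that were lost without any one library other than control replicate 1 (adjusted p up to 0.193 and 0.243). After trend removal NFE2L2 was the 1 gene of this list that passed.

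Of 11 enzymes and factors associated with the proteasome, 3 rose and 0 fell: the deubiquitinase UCHL5 (0.43, limma adjusted p = 0.00159), the ligase UBE3A (0.38, adjusted p = 0.00839) and the adaptor ECPAS (0.30, adjusted p = 0.0145). Of 8 shuttle receptors, which carry ubiquitinated proteins to the proteasome, 2 rose (UBQLN1 by 0.31 and RAD23B by 0.27) and 4 fell, among them BAG6 (-0.36) and UBQLN4 (-0.31). The adjusted p of these 4 named genes lay between 0.00578 and 0.0162. Of 11 genes for the unfoldase VCP and its cofactors, 3 rose and 2 fell. UBXN4, which recruits VCP to the endoplasmic reticulum, averaged 6277 ± 516 counts in knockout and 4252 ± 87.4 in control libraries (SD, n = 3 each; 0.56, SE 0.083, adjusted p = 0.000144), and with the trend removed was called for the longest transcript (0.21, adjusted p = 0.0373) but not for the principal one (0.19, adjusted p = 0.0619). UBXN7 and PLAA rose by 0.40 and 0.265, and UBXN1 and NPLOC4 fell by 0.28 and 0.26. Of 6 genes for ubiquitin and its E1 enzymes, 1 rose and 3 fell. The rise was UBA6, an alternative E1, which averaged 3273 ± 242 counts in knockout and 2130.2 ± 157 in control libraries (0.62, SE 0.092, adjusted p = 0.000142) and had a value of 0.14 after trend removal (adjusted p = 0.137). Among the fallen genes, UBB and UBA1 fell by 0.25 each (adjusted p = 0.0191 and 0.0256). Over all 59 related genes 13 rose (22.0%, against 18.9% of all tested genes) and 19 fell (32.2%, against 14.4%) as deposited. With the longest-transcript trend removed 2 rose (3.39%, against 4.08%) and 11 fell (18.6%, against 5.95%). With the principal transcript 1 rose (1.69%, against 3.98%) and 7 fell (11.9%, against 5.4%). Of the 19 fallen genes 3 were also called lower with the longest-transcript trend removed and 1 with the principal transcript. BAG6, UBQLN4, UBXN1, UBB and UBA1 lost their calls under both, and NPLOC4 under the principal transcript. Calls were lost without knockout replicate 1 in UBE3A and UBQLN1, without knockout replicate 1 or 2 in UBQLN4, and without knockout replicate 2 or control replicate 3 in UBB. Those of ECPAS, RAD23B, UBXN1, NPLOC4 and UBA1 were lost without knockout replicate 1 or 2 or control replicate 3, and that of PLAA without any one library other than control replicate 1. The highest adjusted p of these genes with 1 library left out ran from 0.0527 (UBE3A) to 0.185 (PLAA).

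The antisense gene PSMA3-AS1, named after its values were seen, was read at 1261, 962 and 1000.1 counts in the knockout libraries and at 737, 635 and 537 in the control libraries. The groups did not overlap (0.76, SE 0.13, limma adjusted p = 0.000494), and after trend removal its value was 0.38 for the longest transcript (adjusted p = 0.0367) and 0.35 for the principal one (adjusted p = 0.0511), which did not pass. PSMA3 itself averaged 5686 ± 702 counts in knockout and 4971 ± 534 in control libraries (SD, n = 3 each), and its difference of 0.19 (adjusted p = 0.142) did not pass. PSMD6-AS2 was also called higher (1.32, SE 0.42, adjusted p = 0.0239), at low mean counts of 32.6 in knockout and 12.3 in control libraries. It was not called with the trend removed (1.04, adjusted p = 0.128). PSMG3-AS1 differed by -0.31 (adjusted p = 0.208), and PSMB8-AS1 was below the minimum mean.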

How the data were processed

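The members, roles and related gene lists were chosen with earlier results of these data known. The authors deposited 1 table of 15706 genes. Per the file headers it holds, for 6 libraries, normalized counts, a signal made by the authors by dividing reads by 1 size factor per library, with their mean. It also holds the authors' log2 fold change and SE, a score (the Wald statistic), and the authors' p-value, raw and adjusted. The submitters' processing notes list GRCh38.p13, DESeq2 1.30.1, featureCounts 1.5.0, STAR 2.4.0 and FastQC. Filters, strandedness and the annotation used in counting are not stated in the labels or the file. Division by the smallest step of each library gave whole reads for 100% of values (tolerance 0.01).

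Log2(value + 1), a scale that understates changes of low genes, was tested with limma 3.58.1 in R 4.3.3 (trended variance prior). A minimum mean of 10 left 14618 genes for a two-sided test of 3 knockout against 3 control libraries, with Benjamini-Hochberg adjustment over all of them and a threshold of 0.05. Means are given ± SD. For trend removal, natural splines (5 terms each) of GC percent and log2 length of the longest GENCODE 29 transcript (15681 IDs found), or of the principal transcript, were subtracted per library. edgeR 4.0.16 and DESeq2 1.42.0 were run on recovered reads. Code was tested on simulated data. All members were named, with values per library for called members and the extremes of each role. From each related list up to 3 called genes per direction were named, with PSMB5, PSMB6 and PSMB7, and the 5 immune genes; the values of 2 related genes that this rule selects are not reported here. Gene coordinates and shared exons come from GENCODE 29.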

Additional observations from a re-analysis of the deposited data

How the results depend on the processing

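Counts of called members, 6 higher and 5 lower as deposited, were within 1.5 times of these with pseudocounts of 0.5 and 8, no minimum mean, a minimum mean of 50, TMM or quantile scaling and edgeR. DESeq2 called 7 higher and 9 lower. With the trend removed 0 were higher, with the principal transcript 2, and with the replicate block 10 higher and 12 lower (0 and 8 with block and trend removal together). Of these alternatives, shares of all tested genes are given only for trend removal without the block. Same-numbered libraries correlated by 0.0658, 0.00629 and 0.129 in their deviations from the group means, and differently numbered ones by -0.0994 to 0.0272. Knockout replicates 1 and 3 correlated best with the control of the same number, and knockout replicate 2 did not. The numbers were not taken as pairs, a choice that these values do not settle. Leaving out each library in turn, with and without trend removal, gave 0 to 11 higher and 0 to 12 lower. Signs turned under trend removal, with or without the block, for PSMA4 (-0.24, principal transcript -0.27), PSMC6 (-0.13, -0.16), PSMD12 (-0.13, -0.14), POMP (-0.25, -0.25), SEM1 (-0.38, -0.375), PLAA (-0.033, -0.062), UBE3A (-0.064, -0.056), UBXN7 (-0.013, -0.021) and UCHL5 (-0.011, -0.024), for PSMD6 (-0.18) and UBQLN1 (-0.13) with the longest transcript, and for RAD23B (-0.029) with the principal one. Values over all settings that leave out 1 library spanned -0.23 to 0.28 for PSMA3, -0.29 to 0.12 for PSMA4, -0.18 to 0.33 for PSMC6, -0.14 to 0.36 for PSMD12, -0.035 to 0.49 for PSMD14, -0.22 to 0.28 for PSMD6, -0.009 to 0.58 for NGLY1, -0.067 to 0.35 for PLAA, -0.28 to 0.19 for POMP, -0.007 to 0.315 for RAD23B, -0.046 to 0.54 for SEL1L, -0.42 to 0.06 for SEM1, -0.11 to 0.455 for UBE3A, -0.15 to 0.38 for UBQLN1, -0.07 to 0.46 for UBXN7 and -0.069 to 0.49 for UCHL5. Counting only values not called either as deposited or in the alternative itself, the sign changed in 101 further values over 19 members, 88 of them under trend removal. The cause of these changes was not tested.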
